A study of Rattus norvegicus with 6 samples.

Results

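The windows described here were 4 stretches of the rat genome taken to be rich in olfactory receptor genes, a content not checked here. They covered 5 Mb of chromosome 1, 10 Mb of chromosome 3, 5 Mb of chromosome 7 and 5 Mb of chromosome 8 in build rn4. Every non-control probe whose start lay between positions 160000000 and 165000000 of chromosome 1, 65000000 and 75000000 of chromosome 3, 5000000 and 10000000 of chromosome 7, or 40000000 and 45000000 of chromosome 8 was a member. This gave 6014 of the 172669 probes of the array, with 1789 on chromosome 1, 2184 on chromosome 3, 576 on chromosome 7 and 1465 on chromosome 8. They count as chosen by values measured on these 6 arrays, the tile ratios and their difference between groups. Which of these decided is not recorded, so both the level of the windows and their difference between groups are given as descriptions, without a test of the windows as a set. The remaining 53303 probes of the same 4 chromosomes served for comparison.

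The arrays measured DNA methylation in granulosa cells of the ovary, the hormone-producing somatic cells around the oocyte, from F1 female Sprague Dawley rats killed at postnatal day 56. Their mothers had been gavaged from gestation day 1 to 21 with water (0 mg/kg, control) or with cadmium chloride at 8 mg/kg (cadmium), and each group had 3 arrays. Immunoprecipitated methylated DNA carried Cy5 and input DNA carried Cy3 on each 2-colour array, and values are log2 ratios of Cy5 over Cy3 with each array's median probe at 0. The labels do not state the number of animals or litters behind an array, so p-values measure only the spread between these samples, which may be technical. The granulosa label could not be checked against marker genes, because the files give positions and no gene names.

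Olfactory receptors are G protein-coupled receptors that detect odorants in the sensory neurons of the nose, where each mature neuron expresses a single receptor gene. They form the largest gene family of rodents, lie in clusters on many chromosomes, mostly have their coding sequence in a single exon, and are silent in nearly all other tissues. Immunoprecipitation of methylated DNA recovers fragments according to how many methylated cytosines they hold, so both the number of CpG sites and their methylation set the signal.

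Sequence of the family is shown to give the CpG content of its 5′ ends. The RefSeq gene table of assembly GRCr8 held 1823 olfactory receptor genes and pseudogenes, 1278 of them protein coding and 545 pseudogenes, and 71.5% lay on chromosomes 1, 3, 7 and 8 (399, 447, 230 and 227). Genes were counted in the family by their symbol, Or or Olr followed by a digit. This assembly differs from the build of the array, so none of these genes could be tied to a tile, and the receptor content of the windows was not checked. In the RefSeq promoter table (250 bases before to 50 after the annotated start), the 761 receptor genes on the 4 chromosomes had a median of 1 CpG site, and 32.6% had none. The 9483 other genes on these chromosomes had a median of 8 CpG sites, and 4.02% had none. Median GC content was 34.3% in the receptor sequences and 53% in the others. The letters CG, which read the same on both strands, occurred in 94.5% of all 33469 sequences of this length and in 69.8% of the 1086 olfactory receptor sequences. In 97.1% of the receptor sequences on the 4 chromosomes the annotated start was a start codon, against 5.35% for other genes, so these stretches lie before the coding sequence and need not hold the promoter. One receptor per chromosome with the median CpG number is printed, followed by Hif1an, a gene of chromosome 1 outside the family, for contrast. Each runs 5′ to 3′ on the gene's strand in GRCr8, with CpG sites in capitals.
Or4d10, chr1:218422919-218423218, minus strand: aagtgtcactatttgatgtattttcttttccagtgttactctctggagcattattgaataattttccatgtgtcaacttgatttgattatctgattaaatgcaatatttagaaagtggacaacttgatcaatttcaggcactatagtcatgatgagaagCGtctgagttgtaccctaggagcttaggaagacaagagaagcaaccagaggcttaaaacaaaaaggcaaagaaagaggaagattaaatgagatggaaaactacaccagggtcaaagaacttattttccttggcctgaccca
Or4c104, chr3:95013101-95013400, minus strand: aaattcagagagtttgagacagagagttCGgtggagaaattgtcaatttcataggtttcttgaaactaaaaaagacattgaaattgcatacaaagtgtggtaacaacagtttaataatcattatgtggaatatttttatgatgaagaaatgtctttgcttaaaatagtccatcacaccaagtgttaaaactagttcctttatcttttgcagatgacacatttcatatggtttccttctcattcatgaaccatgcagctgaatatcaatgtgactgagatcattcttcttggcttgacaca
Or6c201, chr7:2254283-2254582, minus strand: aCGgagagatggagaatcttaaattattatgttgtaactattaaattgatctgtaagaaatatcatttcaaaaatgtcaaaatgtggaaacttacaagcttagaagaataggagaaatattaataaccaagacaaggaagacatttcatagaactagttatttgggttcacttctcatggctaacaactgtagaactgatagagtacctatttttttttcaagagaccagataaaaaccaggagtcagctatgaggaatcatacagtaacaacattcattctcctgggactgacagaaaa
Or7g34b, chr8:25775487-25775786, minus strand: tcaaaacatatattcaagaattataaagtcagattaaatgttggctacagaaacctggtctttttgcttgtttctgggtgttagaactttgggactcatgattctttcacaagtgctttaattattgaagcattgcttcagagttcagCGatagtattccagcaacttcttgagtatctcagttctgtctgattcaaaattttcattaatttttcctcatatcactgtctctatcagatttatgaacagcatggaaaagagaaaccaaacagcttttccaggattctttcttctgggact
Hif1an, chr1:253368174-253368473, plus strand: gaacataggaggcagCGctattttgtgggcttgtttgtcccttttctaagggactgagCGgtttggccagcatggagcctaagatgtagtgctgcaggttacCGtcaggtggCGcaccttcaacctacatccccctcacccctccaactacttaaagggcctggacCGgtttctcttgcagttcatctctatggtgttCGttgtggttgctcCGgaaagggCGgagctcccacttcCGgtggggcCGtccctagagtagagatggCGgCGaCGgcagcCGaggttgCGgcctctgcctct
Or4d10, Or4c104, Or6c201 and Or7g34b each held 1 CpG site in 300 bases and a GC content of 32.3% to 36.7%. Hif1an, which encodes an asparagine hydroxylase that acts on hypoxia-inducible factor, held 15 CpG sites in the same length. This is above the median of 8 for all other genes of these chromosomes, because Hif1an was picked among genes whose symbols do not begin with LOC.

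The windows were densely tiled. A tile was a series of neighbouring probes with gaps of up to 1000 bp between starts, and the windows held 610 of the 16174 tiles of the array. They carried 24.4 tiles per Mb, against 7.30 in the rest of the 4 chromosomes. The chromosome 1 window was the densest, with 38 tiles per Mb, and the chromosome 7 window the sparsest, with 13.0. The median gap to the next tile was 18.7 kb in the windows and 45.7 kb in the rest. Single tiles were built alike, with a median length of 1680 bp and 9 probes in the windows and of 1664 bp and 10 probes in the rest. No tile crossed a window edge.

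Probes in the windows were long. Probe lengths on the array ran from 45 to 60 bases, with a mean of 54.2 bases in the windows and 49.1 in the rest. The longest class, 60 bases, made up 40.2% of window probes and 12.6% of the others, while the shortest, 45 bases, made up 16.6% and 50.8%. The base composition of the probes was not analysed here. After probes with a weak input or an outlier spot were left out, 4330 window probes (72.0%) remained, against 76.7% in the rest. At least 3 kept probes were required of a tile, which left 599 window tiles among the 15846 tested, 188 on chromosome 1, 241 on chromosome 3, 64 on chromosome 7 and 106 on chromosome 8.

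The immunoprecipitated signal was weak in the windows. Across arrays, 51.3% to 54.7% of window probes were well above background in that channel, against 75.3% to 78.9% in the rest of the 4 chromosomes. The input channel was above background for 84.2% to 93.3% of window probes and 89.8% to 98.3% of the others. Of the kept window probes, 29.7% were not well above background in the immunoprecipitated channel on any of the 6 arrays, against 14.6% of the others. For such probes the ratio rests on a signal that is not well above background, so the low tile means below are uncertain in part.

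Window tiles had low ratios on all 6 arrays. Their mean was -1.46, -1.54 and -1.43 on control replicates 1, 2 and 3 and -1.46, -1.17 and -1.32 on cadmium replicates 1, 2 and 3. The rest of the 4 chromosomes lay at -0.30 ± 0.028 in control and -0.28 ± 0.047 in cadmium (SD, n = 3 each). In every array the windows lay below the rest, and in control the gap was -1.18 ± 0.046 (SD, n = 3). Cadmium replicate 2 had the smallest gap, -0.85. Only probes with both channels above background on every array gave a control gap of -0.76. In the immunoprecipitated channel alone the control windows were at -1.42 ± 0.11 against -0.05 ± 0.012 in the rest, and in the input alone at -0.02 ± 0.10 against 0.17 ± 0.003 (SD, n = 3 each).

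**Figure D1:**
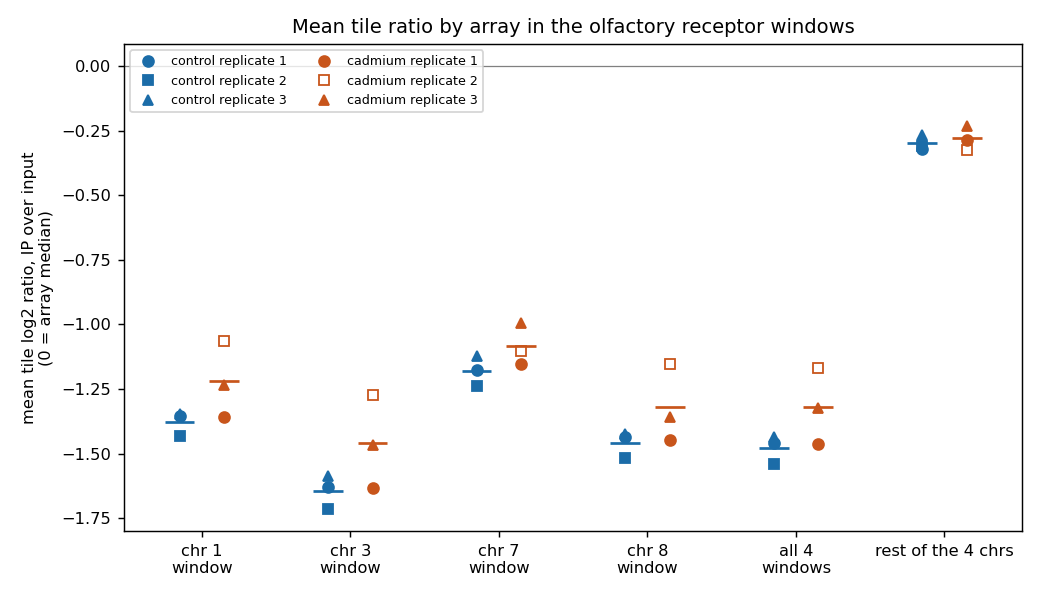
Mean tile log2 ratio of immunoprecipitated over input DNA (y axis, 0 is the array median) in each window, all 4 windows and the rest of the 4 chromosomes. Points are arrays, short bars are means of 3, and the open square is cadmium replicate 2. All window points lie at -0.99 or below, while the rest lies between -0.32 and -0.23.

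Each window was low by itself. In control the mean was -1.38 ± 0.045 on chromosome 1, -1.64 ± 0.065 on chromosome 3, -1.18 ± 0.059 on chromosome 7 and -1.46 ± 0.051 on chromosome 8 (SD, n = 3 each). Against the rest of its own chromosome the gap was -1.05, -1.36, -0.97 and -1.10 in the same order. The windows on chromosomes 3 and 7, the lowest and the highest, did not overlap over the 3 control arrays. Tiles more than 2-fold below the array median on all 6 arrays numbered 345 of 599 (57.6%), where the share over all tiles of the array was 18.4%. Tiles more than 2-fold above it on all 6 arrays numbered 4 (0.668%), 1 in each window, where the share over all tiles was 1.71%.

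The ratio varied along the windows. Among 22 blocks of 1 Mb with at least 5 tested tiles, the control mean ran from -2.65 to 0.41. The lowest block was the stretch of chromosome 7 from 6000000 to 7000000, with 10 tiles at -2.65 ± 0.10. In the same window, the block from 9000000 to 10000000 held 24 tiles at 0.41 ± 0.008 (SD, n = 3 each), and 5 of these were more than 2-fold above the median on all 3 control arrays. Apart from it, only the chromosome 8 block from 43000000 to 44000000 lay above 0, with 10 tiles at 0.03 ± 0.085. Mean probe length was 57.1 bases in the lowest of these blocks and 46.3 in the highest. On chromosome 3, the 6 blocks from 69000000 on all lay between -1.93 and -1.58. The densest block, on chromosome 1 from 161000000, held 61 tiles with a control mean of -1.48 ± 0.044.

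**Figure D2:**
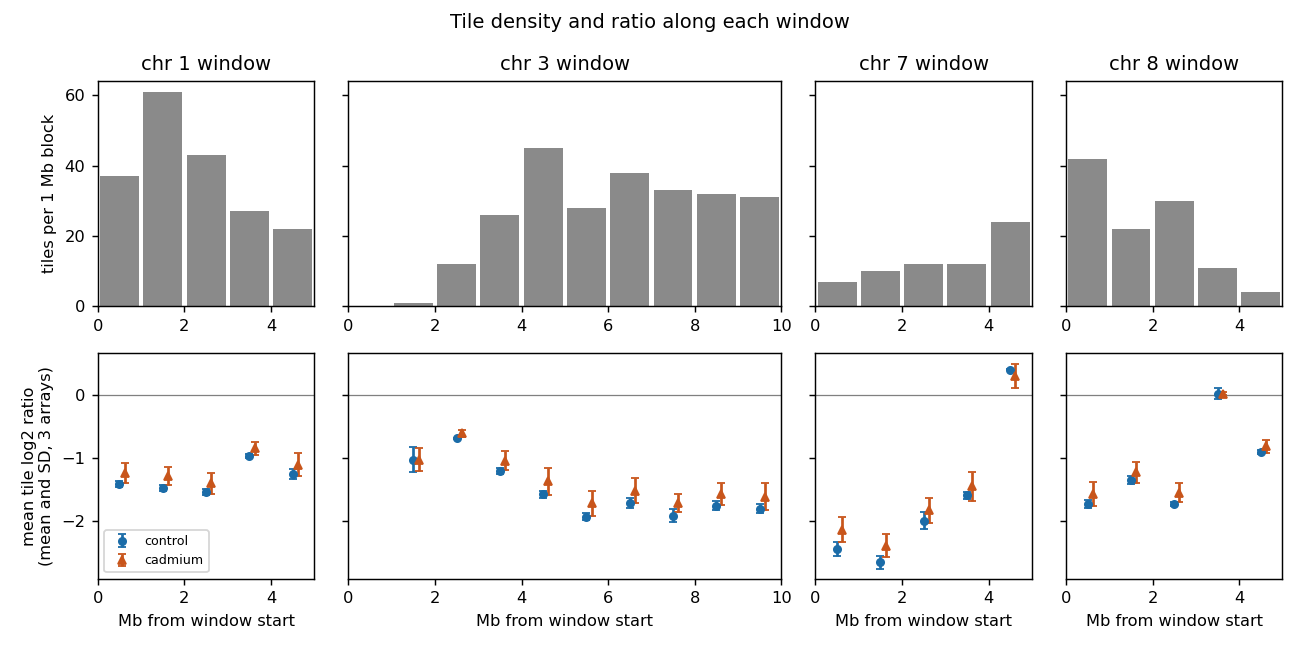
Tiles per 1 Mb block (upper row) and mean tile log2 ratio with its SD over 3 arrays (lower row, circles control, triangles cadmium) against distance in Mb from the start of each window. The last block of the chromosome 7 window and the fourth of chromosome 8 stand at or above 0, and all other blocks stand below.

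The edges of the windows did not all coincide with a step in the ratio. On chromosome 1, the 10 tiles just inside the lower edge had a control mean of -0.87 and the 10 just outside -0.31, while at the upper edge the values were -1.30 inside and -1.39 outside. On chromosome 3, they were -0.82 inside and -0.29 outside at the lower edge, and -1.76 inside and -0.50 outside at the upper edge. Just outside the lower edges on chromosomes 7 and 8 the means were -2.24 and -2.08, against -2.62 and -1.53 just inside. At the upper edges they were 0.70 inside and 0.11 outside on chromosome 7, and -0.07 inside and -0.33 outside on chromosome 8. Low tiles therefore continued past the given positions at 3 edges.

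Tiles in the windows also differed from one another. The SD of the control ratio over window tiles was 0.99, and it was 1.51 in the chromosome 7 window. The correlation of a tile with its next neighbour within a window was 0.41 over 586 pairs, against 0.30 in the rest. By window it was 0.22 on chromosome 1 (185 pairs), 0.25 on chromosome 3 (237 pairs), 0.75 on chromosome 7 (62 pairs) and 0.38 on chromosome 8 (102 pairs), so the 2 windows with most pairs lay below the rest. These correlations are over tiles of the same arrays, which share the probe design and the array noise, and describe the layout only.

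The ratio fell with probe length in the windows and outside them. Over window tiles, the control ratio and the mean probe length correlated at r = -0.64 (599 tiles on the same arrays), against -0.72 in the rest. Control means of window probes were 0.20 ± 0.030 at 45 bases, -0.93 ± 0.049 at 46 to 49, -1.55 ± 0.069 at 50 to 54, -2.02 ± 0.080 at 55 to 59 and -2.27 ± 0.043 at 60 bases (SD, n = 3 each). In the rest they were 0.79 ± 0.042, -0.64 ± 0.017, -1.45 ± 0.041, -1.97 ± 0.052 and -2.41 ± 0.042. The windows thus lay 0.59 lower than the rest at 45 bases and 0.14 higher at 60 bases.

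**Figure D3:**
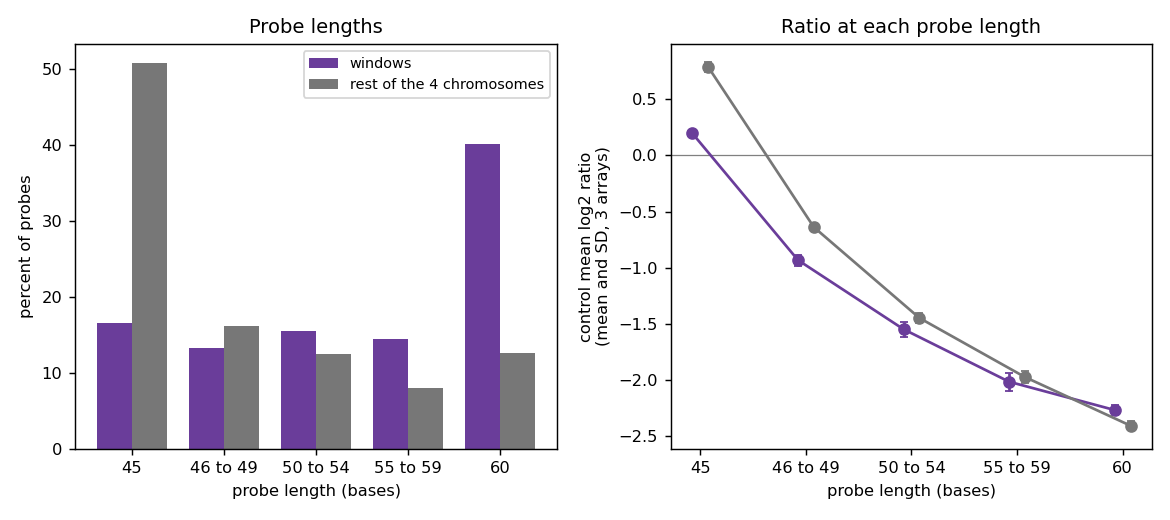
Share of probes in each length class (left, percent) and mean control log2 ratio with its SD over 3 arrays in each class (right), for the windows and the rest of the 4 chromosomes. The windows hold more probes of 60 bases, and their ratio lies below the rest at 45 bases, by 0.59, and above it at 60 bases.

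Set against tiles of the rest of the 4 chromosomes with the same mean probe length, in bins of 2 bases, window tiles were -0.07 ± 0.014 from them in control and -0.05 ± 0.016 in cadmium (SD, n = 3 each). By window, each against its own chromosome, this gap in control was -0.20 ± 0.015 on chromosome 1, -0.09 ± 0.018 on chromosome 3, -0.08 ± 0.031 on chromosome 7 and 0.03 ± 0.025 on chromosome 8. Against tiles of equal mean probe length the control gap of the 4 windows was therefore -0.07 in place of -1.18. It averages gaps of both signs, since single probes of the windows were at -0.59 from the rest at 45 bases and at 0.14 at 60 bases.

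Among the 45-base probes, the place within the tile mattered in the windows. In tiles of 1200 to 2200 bp, control means of these window probes were 0.74 ± 0.033 within 200 bp of the tile centre and -0.21 ± 0.042 at 800 to 1100 bp from it (SD, n = 3 each). In the rest they were 0.75 ± 0.033 and 0.59 ± 0.035. Between these, window means were 0.52 at 200 to 400 bp, -0.08 at 400 to 600 bp and 0.22 at 600 to 800 bp. The rest had 0.90, 0.96 and 0.78 there. The 45-base probes of the windows were therefore as high as others within 200 bp of the centre. They were lower in every bin further out, without an even fall. The input signal of these 45-base window probes went the other way, at 0.42 ± 0.080 at the centre and 0.93 ± 0.030 at the ends, against 0.28 ± 0.068 and 0.43 ± 0.072 in the rest. Window probes of 60 bases moved less. They read -2.05 ± 0.051 at the centre, -2.53 ± 0.045 at 600 to 800 bp and -2.24 ± 0.043 at the ends.

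A few tiles stood high. By the rule for naming tiles, the highest control ratio in each window among tiles with at least 4 kept probes was given. On chromosome 7, chr7:9607190-9608430 (8 probes, mean length 45.2 bases) read 1.72, 1.80 and 1.72 in control and 1.81, 1.00 and 1.87 in cadmium. On chromosome 3, chr3:67944495-67946005 (7 probes, 45.6 bases) read 1.34, 1.46 and 1.36 in control and 1.41, 1.02 and 1.25 in cadmium. All probes of both tiles were above background in the immunoprecipitated channel on every array, and cadmium replicate 2 was the lowest array in both. The highest tiles of chromosome 1, chr1:161648782-161650173 with 4 probes, and of chromosome 8, chr8:41330130-41331150 with 4 probes, both had a control mean of 1.35, with an SD of 0.35 and 0.036.

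The lowest tiles, again among those with at least 4 kept probes, were made of long probes. On chromosome 7, chr7:6357848-6359290 (6 probes, 58.2 bases) read -3.79, -3.74 and -4.01 in control and -3.32, -3.42 and -3.42 in cadmium. On chromosome 3, chr3:69021088-69022284 (5 probes, 59.2 bases) read -3.41, -3.38 and -3.61 in control and -3.21, -2.38 and -2.89 in cadmium. None of the 6 probes of the first tile was well above background in the immunoprecipitated channel on every array, and 2 of the 5 of the second were. The levels of both tiles are therefore uncertain. The lowest tiles of chromosome 1, chr1:161174800-161176138, and chromosome 8, chr8:40431051-40432621, had control means of -3.05 ± 0.28 and -3.11 ± 0.29 (SD, n = 3 each).

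One stretch of chromosome 8 was tiled without the usual gaps. Between 44468685 and 44570592 it held 3 tiles with 504 probes over 101.9 kb, spaced at a median of 163 bp, which is 34.4% of the probes of the chromosome 8 window. Such long tiles were not particular to the windows, since 143 tiles on the array were longer than 10000 bp and 2 of them lay in the windows. The 401 kept probes of the stretch had means of -1.34, -1.36 and -1.31 in control and -1.36, -0.99 and -1.21 in cadmium. In bins of 5 kb the control mean ran from -2.40 ± 0.035, at 25 to 30 kb before the centre, to -0.11 ± 0.021 in a bin of 3 probes at the start. Neighbouring bins could differ widely, with -2.25 ± 0.053 at 5 to 10 kb after the centre and -0.32 ± 0.096 at 10 to 15 kb (SD, n = 3 each).

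Cadmium and control were compared tile by tile with limma over all 15846 tiles of the array. No window tile passed an adjusted p of 0.05, where 0.00631% of all tiles (1 tile, outside the windows) did, and the lowest adjusted p in the windows was 0.551. At an unadjusted p under 0.05 the limma fit gave 65 window tiles (10.9%), beside 3.57% of all tiles and 3.04% of the rest of the 4 chromosomes. Of these, 64 were higher in cadmium (background 3.26%) and 1 was lower (background 0.303%). They were spread over the windows, with 20 on chromosome 1, 28 on chromosome 3, 8 on chromosome 7 and 9 on chromosome 8. The 95% interval of a window tile's difference reached a median of 0.33 to each side, before any adjustment for the number of tiles. On chromosome 8 a tile difference of 0.75 still had a limma adjusted p of 0.551. With 3 arrays a group, single-tile differences below 0.33, and also well above it, could therefore go uncalled. The count of 65 fell to 32, 20 and 42 without control replicates 1, 2 and 3 and rose to 170 without cadmium replicate 1, and it was 13 when all arrays were scaled to the same spread. Under these settings the share over all tiles was not taken.

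The median difference of window tiles, cadmium minus control, was 0.17, against 0.01 in the rest of the 4 chromosomes and 0.03 over all tiles. It was higher in cadmium in 502 of the 599 tiles (83.8%), beside 56.2% of all tiles, but the median became -0.01 when all arrays were scaled to the same spread and 0.0018 with another background correction (normexp). By array, the median difference from the control mean was 0.02 for cadmium replicate 1, 0.34 for replicate 2 and 0.14 for replicate 3. Without cadmium replicate 2 it was 0.08. Cadmium replicate 2 was scanned by itself, and its tile ratios had an SD of 0.78 over all tiles, where the other 5 arrays had 1.06 to 1.12. Within the scan that held control replicates 1 and 2 and cadmium replicate 1 the median was 0.03, and within the scan that held control replicate 3 and cadmium replicate 3 it was 0.10. With the scan as a block in the limma fit it was 0.06, and 3 window tiles passed, but the share of all tiles that passed with this block was not taken. Being alone in its scan, cadmium replicate 2 did not enter the difference in that fit.

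The difference followed the control ratio of the tile, inside and outside the windows alike. For tiles with a control ratio below -3 the median difference was 0.33 in the windows and 0.32 in the rest. It was 0.26 and 0.26 between -3 and -2, 0.18 and 0.17 between -2 and -1, 0.07 and 0.05 between -1 and 0, -0.09 and -0.07 between 0 and 1, and -0.20 and -0.21 above 1. Of the window tiles, 27.4% lay between -3 and -2 and 42.9% between -2 and -1, against 6.26% and 18.9% of the rest. Without cadmium replicate 2 the medians were 0.21 in the windows and 0.16 in the rest below -3, 0.13 and 0.11 between -3 and -2, and 0.07 and 0.06 between -2 and -1. Above these, without that array, they were 0.04 and 0.03 between -1 and 0, 0.04 and 0.03 between 0 and 1, and -0.01 and 0.01 above 1, so the negative values at high ratios rested largely on that array. The share of tiles at an unadjusted limma p under 0.05 was 33.3% in the windows and 26.7% in the rest below -3, 18.9% and 14.98% between -3 and -2, 8.95% and 6.26% between -2 and -1, and 3.70% and 1.34% between -1 and 0. It was 0 of 35 window tiles and 0.608% of the rest between 0 and 1, and 0 of 14 and 0.523% above 1. Since the control arrays enter both the ratio and the difference, this relation is partly built in. Bins from other values were used only for the gap to comparable tiles given below.

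**Figure D4:**
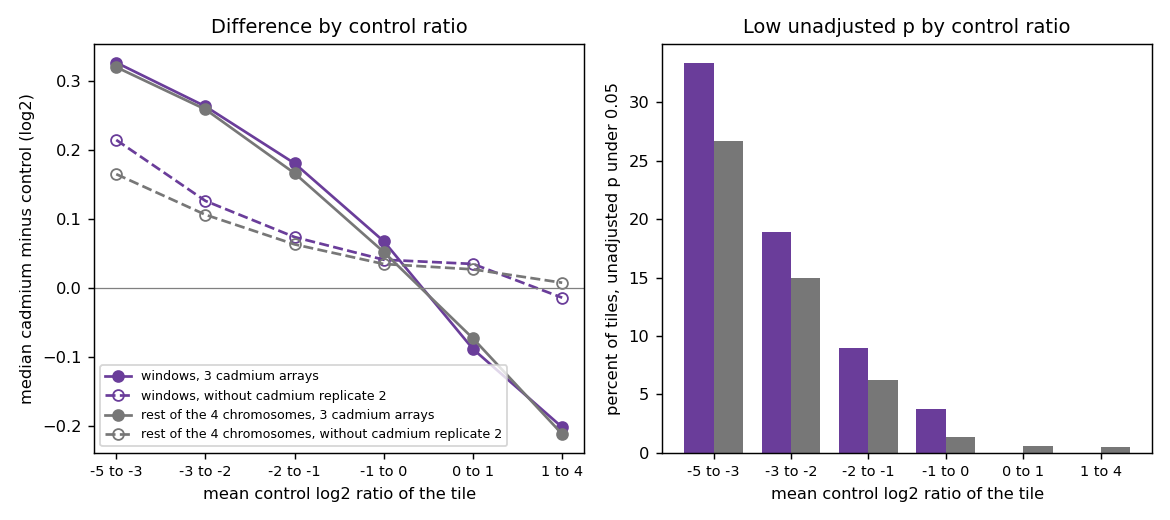
Median cadmium minus control difference (left, log2) and percent of tiles with an unadjusted limma p under 0.05 (right) by the tile's mean control log2 ratio, for the windows and the rest of the 4 chromosomes. Solid lines use all 3 cadmium arrays and dashed lines leave out cadmium replicate 2. The lines of windows and rest lie close together and run from 0.33 and 0.32 down to -0.20 and -0.21 with all arrays.

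Compared with tiles of the rest of the 4 chromosomes in the same bin of control ratio and probe length, the 575 window tiles with at least 5 such partners had a mean difference of 0.16, and their partners 0.15, a gap of 0.012. The gap was 0.019 with bins from control replicate 1 and the difference from control replicates 2 and 3, and 0.013 with bins from the mean of all 6 arrays. It was 0.013 without cadmium replicate 2, 0.015 and 0.011 within the scans that held both groups, and 0.002 without the chromosome 3 window. The share of tiles at an unadjusted p under 0.05 was 10.4% in these window tiles and 7.83% in their partners. No test was made of these gaps, because the windows were chosen with results known.

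Each channel was also fitted alone with limma. No window tile passed in the input channel, where 0.00631% of all tiles did, and 16 had an unadjusted p under 0.05 (background 1.56%), 14 of them lower in cadmium (background 1.05%). No window tile passed in the immunoprecipitated channel, where 0 of all tiles did, and 40 had an unadjusted p under 0.05 (background 3.13%), 35 of them higher in cadmium (background 2.57%). The median difference was -0.11 in the input and 0.06 in the immunoprecipitated channel. Among the 65 tiles with a low p in the ratio, the input was lower in cadmium in 62 and the immunoprecipitated signal higher in 61, with medians of -0.15 and 0.22. Their median difference from the controls was 0.22, 0.56 and 0.33 for cadmium replicates 1, 2 and 3. Because the 65 tiles were picked by the ratio of the 2 channels and nearly all were higher in cadmium, the pick itself favours these directions. The counts and medians therefore describe the picked tiles only.

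Cadmium and control arrays did not overlap at all in 99 window tiles, 91 of them higher and 8 lower in cadmium, where 10.2% of all tiles (7.95% higher, 2.28% lower) did so. The 3 tiles of smallest p with at least 4 kept probes in each window were named by rule. All 12 were higher in cadmium, by 0.33 to 0.75, and in none did the groups overlap, but all had a limma adjusted p between 0.551 and 0.856. A pick by small p itself favours separate groups, and nearly all low-p window tiles were higher in cadmium. Both traits therefore describe the picked tiles only. With the scan as a fixed block 3 of the 12 passed, as a random block 1, and with array weights 6. How many of all tiles passed under these settings was not taken. Cadmium replicate 2 was alone in its scan, so under the fixed block it did not enter the difference, and array weights gave it only 0.128. With that array left out of the main fit, none of the 12 passed. The differences of the 12 tiles ran from 0.0092 to 0.37 with normexp and from 0.03 to 0.40 in the deposited log2 values. Of the 73 kept probes of these tiles, 31 were above background in the immunoprecipitated channel on every array.

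The tile with the smallest p lay on chromosome 8, at chr8:42691590-42692548, and had 4 kept probes of 7. It read -1.81, -1.79 and -1.87 in control and -1.02, -0.98 and -1.22 in cadmium. The 3 cadmium arrays were all above the 3 control arrays, by 0.75 ± 0.12 (SE; limma adjusted p = 0.551). Its input was 0.67 lower in cadmium and its immunoprecipitated signal 0.09 higher, and 2 of the 4 probes were above background in that channel on every array. The difference was 0.78 in the scan with 3 arrays and 0.65 in the scan with 2. The tile passed the limma threshold with the scan as a block or with array weights, settings for which the share of all tiles that passed was not taken. Its difference was 0.37 with normexp and 0.40 in the deposited log2 values, and it did not pass in either.

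On chromosome 7, chr7:7924030-7925571 (6 probes) read -2.13, -2.27 and -2.01 in control and -1.63, -1.36 and -1.56 in cadmium. The difference was 0.62 ± 0.13 (SE; limma adjusted p = 0.856), and here the immunoprecipitated signal made up most of it, 0.51 against -0.12 in the input. With the scan as a block the difference was 0.52, and the tile passed (limma adjusted p = 0.0453). It also passed with array weights (limma adjusted p = 0.0063). The share of all tiles that passed under these settings was not taken. With normexp the tile's difference was 0.15 and in the deposited log2 values 0.12, and it did not pass in either. The second tile of that window, chr7:8294914-8296626 (9 probes), read -2.02, -2.24 and -2.15 in control and -1.56, -1.48 and -1.81 in cadmium, a difference of 0.52 ± 0.13 (SE; limma adjusted p = 0.856). At its start lay a run of 3 neighbouring probes, chr7:8294914-8295359, that were all higher in cadmium at an unadjusted limma p under 0.05. The array held 15 such runs, all higher in cadmium, and this was the only run in the windows. The mean of its probes was -3.44, -3.66 and -3.55 in control and -2.07, -2.35 and -2.83 in cadmium, 1.13 higher in cadmium, with 0.96 in the immunoprecipitated signal and -0.19 in the input. The third tile by p, chr7:6357848-6359290, is the lowest tile given above, with a difference of 0.46 that turned to -0.04 under equal spread and was 0.50 with the scan as a block, where it passed (limma adjusted p = 0.0453).

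On chromosome 1, chr1:161251814-161253324 (6 probes) read -0.20, -0.42 and -0.30 in control and -0.01, 0.18 and 0.28 in cadmium. It was 0.46 ± 0.12 higher in cadmium (SE; limma adjusted p = 0.856), nearly all of it in the immunoprecipitated signal, which was 0.44 higher while the input was 0.03 lower. The other two were chr1:161329697-161331217, at 0.46, and chr1:164387653-164389232, at 0.36. On chromosome 3 the smallest p belonged to chr3:69021088-69022284, the lowest tile of that window among those with at least 4 kept probes, with a difference of 0.64 ± 0.20 (SE; limma adjusted p = 0.856), -0.46 in the input and 0.19 in the immunoprecipitated signal. Its neighbours in the list, chr3:69195913-69197322 and chr3:69116187-69117485, lay within the same 1 Mb block and differed by 0.44 and 0.43. The remaining tiles of chromosome 8, chr8:42437682-42438226 and chr8:42822965-42824689, differed by 0.44 and 0.33.

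**Figure D5:**
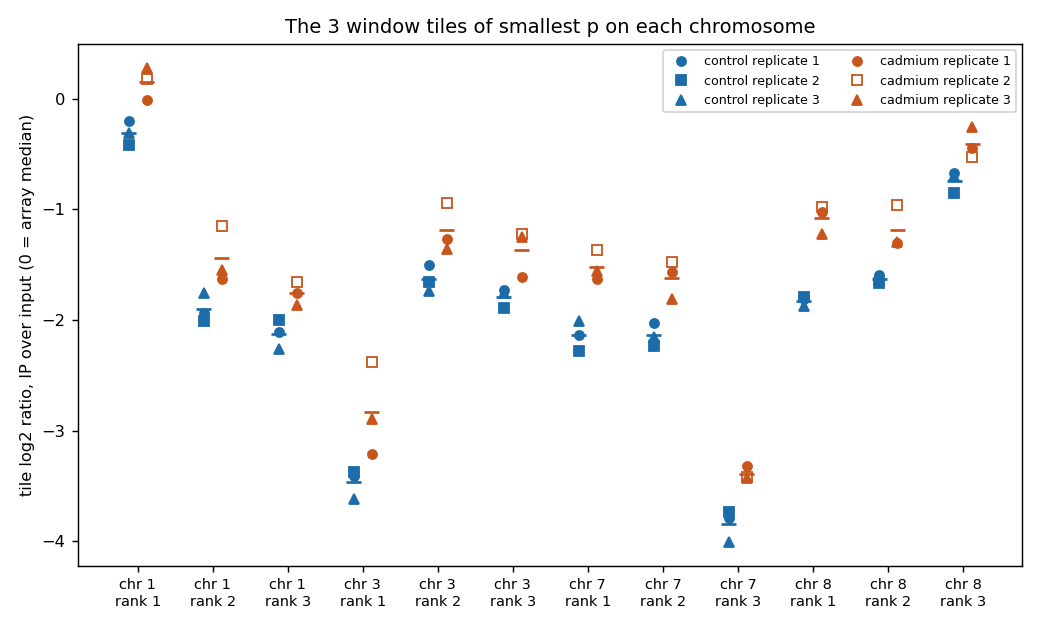
Log2 ratio of immunoprecipitated over input DNA (y axis, 0 is the array median) on each array for the 3 tiles of smallest limma p in each window, ranked by p. Points are arrays, short bars are means of 3, and the open square is cadmium replicate 2. In all 12 tiles the 3 cadmium arrays lie above the 3 control arrays, which the pick by small p favours.

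The tile with the most kept probes in each window was named without regard to p. The tiles above were picked by small p, so the sizes of the differences are not compared. On chromosome 3, chr3:68270425-68273776 (16 probes) read -0.33, -0.39 and -0.35 in control and -0.34, -0.41 and -0.34 in cadmium, and the groups overlapped. On chromosome 7, chr7:9553565-9555743 (11 probes) was at 0.63 ± 0.086 in control and 0.65 ± 0.17 in cadmium (SD, n = 3 each). On chromosome 1, chr1:163480048-163482236 (12 probes) was at -1.02 ± 0.054 and -0.79 ± 0.19. The longest tile of the dense chromosome 8 stretch, chr8:44524057-44570592 (189 probes), was at -1.43 ± 0.007 in control and -1.27 ± 0.25 in cadmium, with cadmium replicate 2 the highest array.

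Single probes were fitted over all 132042 kept probes with limma. None of the 4330 window probes passed, where 0 of all probes did, and the lowest adjusted p was 0.910. At an unadjusted p under 0.05 there were 201 window probes (background 3.13%), 181 of them higher in cadmium (background 2.68%). In the dense chromosome 8 stretch 21 of 401 probes (5.24%) had such a p, 19 of them higher in cadmium.

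Window tiles were also more variable between arrays of a group. The median SD over the 3 control arrays was 0.12 for the ratio, 0.14 for the input and 0.15 for the immunoprecipitated signal in the windows, against 0.10, 0.10 and 0.10 in the rest of the 4 chromosomes. Against tiles of the same mean probe length the mean SD of the ratio was 0.14 in both. Measured at equal mean probe length, the windows were thus about as precise as other tiles.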

How the data were processed

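Arrays of 3 control and 3 cadmium samples were used. The deposited intensity values, background-subtracted and dye-scaled, came from version 11.0.1.1 of Feature Extraction on an rn4 design, per the file headers. A deposited log2 table, an alternative here, correlated at 0.874 to 0.882 with the scanner ratios in the direction of Cy5 over Cy3, with column medians of -0.034 to 0.027; its scale and centring are not given in the sources used here. The submitters' processing notes name limma.

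Ratios of processed signals were taken on the log2 scale and centred by array medians. A probe needed an input signal flagged well above background, and no outlier flag, on each of the 6 arrays; a tile needed 3 such probes. Tile and probe ratios and each channel were fitted with lmFit and eBayes (limma 3.58.1, R 4.3.3), two-sided, without covariates, and adjusted by Benjamini-Hochberg over the whole array. The steps were tested on simulated data. Named in each window were any tile that passed, the 3 smallest p and the highest and lowest control ratio among tiles with at least 4 kept probes, the tile with the most probes, and every run of probes. The members, lists and alternatives were chosen with earlier results of these data known. Comparable tiles shared bins of 0.5 in control ratio and 2 bases in probe length. The number of arrays limits the precision.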

Additional observations from a re-analysis of the deposited data

How the results depend on the processing

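No window tile passed except with array weights (15 tiles, with a weight of 0.128 for cadmium replicate 2), the scan as a fixed block (3) and as a random block (1). Under the fixed block cadmium replicate 2, alone in its scan, did not enter the difference. The 65 tiles at an unadjusted limma p under 0.05 became 37 with loess, 30 with quantile normalization, 13 with equal spread, 7 with normexp, 10 with both channels above background, 38 with probe medians, 26 in the deposited table, 40 with trend and robust moderation, 195 with array weights, 98 and 101 with the scan as a fixed or random block, and 20 to 170 when each array was left out. Shares over all tiles were taken in the main fit only, so the counts under other settings have no background beside them. Replicate numbers gave no pairing: same-numbered deviations correlated at -0.185, -0.104 and 0.370, and the replicate block gave 64 tiles. The control gap of -1.18 to the rest of the 4 chromosomes was -0.73 with loess, -1.12 with quantile normalization and with equal spread, -0.61 with normexp, -0.76 with both channels above background, -1.09 without a filter on dim probes, -1.24 with outlier spots missing or kept, -1.38 with medians, -0.80 in the deposited table, -1.23 and -1.07 without the chromosome 1 or 3 window and -1.05 with windows widened by 1 Mb. The median difference of 0.166 reversed to -0.0093 with equal spread and -0.0014 in the deposited table, and was 0.0018 with normexp. The gap of 0.012 to comparable tiles was 0.0185 with loess, 0.0189 without the filter, 0.0074 with both channels above background, 0.016 with medians, 0.0079 with a minimum of 5 probes, 0.0063 in the deposited table, 0.0077 to 0.0186 when each array was left out, 0.0020 and 0.0168 without the chromosome 3 or 8 window, 0.0081 with widened windows, 0.0229 with bins of probe length alone, 0.0186 with bins from control replicate 1 and 0.0072 against all other autosomal tiles. Of 268 values of the 12 named tiles under these settings, 257 kept their direction short of the threshold, 10 kept it and passed, and 1 reversed, chr7:6357848-6359290 with equal spread (-0.039). These tiles were picked by small p on the same arrays, so the pick itself favours a kept direction. Some settings, such as the replicate block or trend and robust moderation, leave a tile's difference unchanged. The tally therefore does not measure how stable the differences are. Equal spread changes the scale of the arrays, and leaving out an array changes their number. What caused the shifts was not tested under any setting.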
